A study of Homo sapiens with 12 samples.

Results

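The genes CDKN2A, CDKN2B, CDKN2B-AS1, MTAP and KLHL9 lie in the band 9p21 of the short arm of chromosome 9 and were followed through RNA sequencing of 12 libraries. They were chosen by name, and all 5 were found among the 38516 genes of the deposited table. The libraries came from KYSE150 and KYSE510, established cell lines of human esophageal squamous cell carcinoma, grown in RPMI-1640 medium with fetal bovine serum. Each line had control cells and cells with silenced HCP5, a gene for a long non-coding RNA, and each of these 4 groups held 3 libraries. The titles begin with sh, the reagent sequences are not given in the sources used here, and neither is whether the replicates were separate cultures, so p-values measure only the spread between these libraries. Levels are in RPKM, which is the number of reads relative to exon length and to all assigned reads of the library. Differences are on the scale log2(RPKM + 0.5), which understates the change of low genes.

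Band 9p21 is among the regions most often deleted in squamous carcinomas of the esophagus. CDKN2A encodes p16INK4a, which inhibits the kinases CDK4 and CDK6 and so keeps the RB protein active, and, from another first exon and reading frame, p14ARF, which inhibits the ubiquitin ligase MDM2. CDKN2B encodes p15INK4b, a related inhibitor of the same kinases. CDKN2B-AS1 (ANRIL) is a long non-coding RNA read from the other strand. It overlaps only the outer end of CDKN2A, runs across CDKN2B, and has been linked to the silencing of both genes by Polycomb proteins. MTAP encodes an enzyme of methionine salvage that breaks down methylthioadenosine, an inhibitor of the methyltransferase PRMT5, and is often deleted together with CDKN2A. KLHL9 encodes an adaptor of the ubiquitin ligase built on CUL3 and lies on the telomere side of MTAP.

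Library depth ran from 20035025 to 28202422 reads assigned to genes, and the 3 silenced libraries of KYSE150 were deeper than the 3 controls of that line. HCP5, the targeted gene, was below its same-numbered control in 6 of 6 silenced libraries. In KYSE150 its controls were at 0.779, 0.745 and 0.786 RPKM and its silenced libraries at 0.315, 0.418 and 0.579 RPKM (log2 difference -0.45, SE 0.20, limma adjusted p 0.267). In KYSE510 the controls were at 0.914, 1.85 and 1.40 RPKM and the silenced libraries at 0.505, 0.951 and 0.948 RPKM (-0.53, SE 0.20, adjusted p 0.646), so the targeted gene itself did not pass the threshold of 0.05 in either line. With a term for the paired replicate number the limma adjusted p was 0.0556 in KYSE150 and 0.134 in KYSE510. On the reads behind the values, voom, a limma method for counts, with the same term called HCP5 lower in both lines (-0.81 and -0.78, adjusted p 0.0221 and 0.0318). All 10 squamous epithelial markers listed for this check averaged at least 1 RPKM in every group, with summed levels from 1120 to 3180 RPKM. Fibroblast markers summed to at most 0.822 RPKM per library, CD68 was the only one of 5 measured leukocyte markers to reach a mean of 1 RPKM, and CDH5 the only one of 4 endothelial markers, in KYSE510. In bulk RNA, fewer cells carrying a transcript and less of it in each cell cannot be told apart.

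CDKN2A, CDKN2B and CDKN2B-AS1 were read in every KYSE150 library and were at or near 0 in every KYSE510 library, whereas the levels of MTAP and KLHL9 overlapped between the lines. Of the 4 genes that passed the minimum of 0.5 RPKM in 3 libraries, 2 differed between the control lines, both lower in KYSE510. These were CDKN2A and CDKN2B. Both passed the minimum through KYSE150 libraries alone, so their direction followed from how they entered the test. Over all 17823 genes tested, 62% differed between the control lines and 33.7% were lower in KYSE510, so a difference between these lines was common. CDKN2A was the 13th most lower gene in KYSE510 and CDKN2B the 240th. These places, and the shares below, depend on the 0.5 RPKM added before taking logs, since both genes were at or near 0 in KYSE510. For CDKN2B the control difference was -2.25, but -4.30 with a pseudocount of 0.1 and -1.53 with a pseudocount of 1. A difference at least as large in either direction was seen for 0.410% of tested genes in the case of CDKN2A and for 4.01% in the case of CDKN2B.

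CDKN2A occupies chr9:21967753-21995301 on the minus strand of GRCh38, with 4329 exon bases in the deposited table. GENCODE release 29 gives it 14 transcripts, of which 10 are coding. The table holds 1 value per gene, so p16INK4a and p14ARF were not separated. Its levels in KYSE150 were 16.1, 12.5 and 17.7 RPKM in the controls (15.4 ± 2.64, SD, n = 3) and 19.1, 17.7 and 18.4 RPKM after silencing (18.4 ± 0.697, SD, n = 3). KYSE510 gave 0, 0 and 1 reads in controls and 2, 2 and 0 reads after silencing, the highest of these levels being 0.0219 RPKM. All 6 libraries of KYSE150 stood above all 6 of KYSE510. For 64% of all tested genes the 3 controls of 1 line did not overlap the 3 of the other, in either direction. The share for 6 against 6 libraries was not computed. The control lines differed by -4.97 (SE 0.11, limma adjusted p 2.15e-11). By reads, the level in KYSE150 controls was 5162 times that in KYSE510 controls (exact 95% interval 926 to 203930, from 4250 against 1 reads), and in silenced libraries 1393 times (544 to 5115, from 6485 against 4 reads). These intervals cover counting error only. The exact permutation test of libraries between lines, run within treatments, gave p = 0.005, the smallest its 400 arrangements allow.

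CDKN2B occupies chr9:22002903-22009363 on the minus strand, with 4058 exon bases that no other gene of the table shares. Its KYSE150 controls were at 1.62, 2.81 and 1.41 RPKM (1.95 ± 0.753, SD, n = 3) and its silenced libraries at 2.29, 2.82 and 2.09 RPKM (2.40 ± 0.378, SD, n = 3). Control replicate 2 was the highest control and reached the level of the highest silenced library, so the groups overlapped. All 6 KYSE510 libraries had 0 reads, where 3 reads over a group would be 0.00962 RPKM in controls and 0.0106 RPKM after silencing. Against that floor of 3 reads over the group, CDKN2B was at least 200.8-fold higher in KYSE150 among controls (496 against 0 reads) and at least 228-fold higher among silenced libraries (796 against 0 reads). The control lines differed by -2.25 (SE 0.18, limma adjusted p 8.04e-07), and the exact permutation test within treatments gave p = 0.005.

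CDKN2B-AS1 occupies chr9:21994778-22121097 on the plus strand, with 4225 exon bases over 21 annotated transcripts. It was the lowest of the 5 genes in KYSE150, at 0.177, 0.265 and 0.136 RPKM in controls (15, 23 and 13 reads) and 0.189, 0.302 and 0.316 RPKM after silencing (21, 36 and 36 reads). It had 0 reads in all 6 KYSE510 libraries. Over the floor of 3 reads a group, it was at least 20.6-fold higher in KYSE150 controls and at least 26.6-fold higher in KYSE150 silenced libraries. It did not reach the minimum level for the test over all genes, and the exact permutation test within treatments gave p = 0.005. Without that minimum it was also called lower in KYSE510, making 3 of 5 genes. In that fit 12619 of 36815 genes were called between the control lines, 6471 of them lower in KYSE510.

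**Figure D1:**
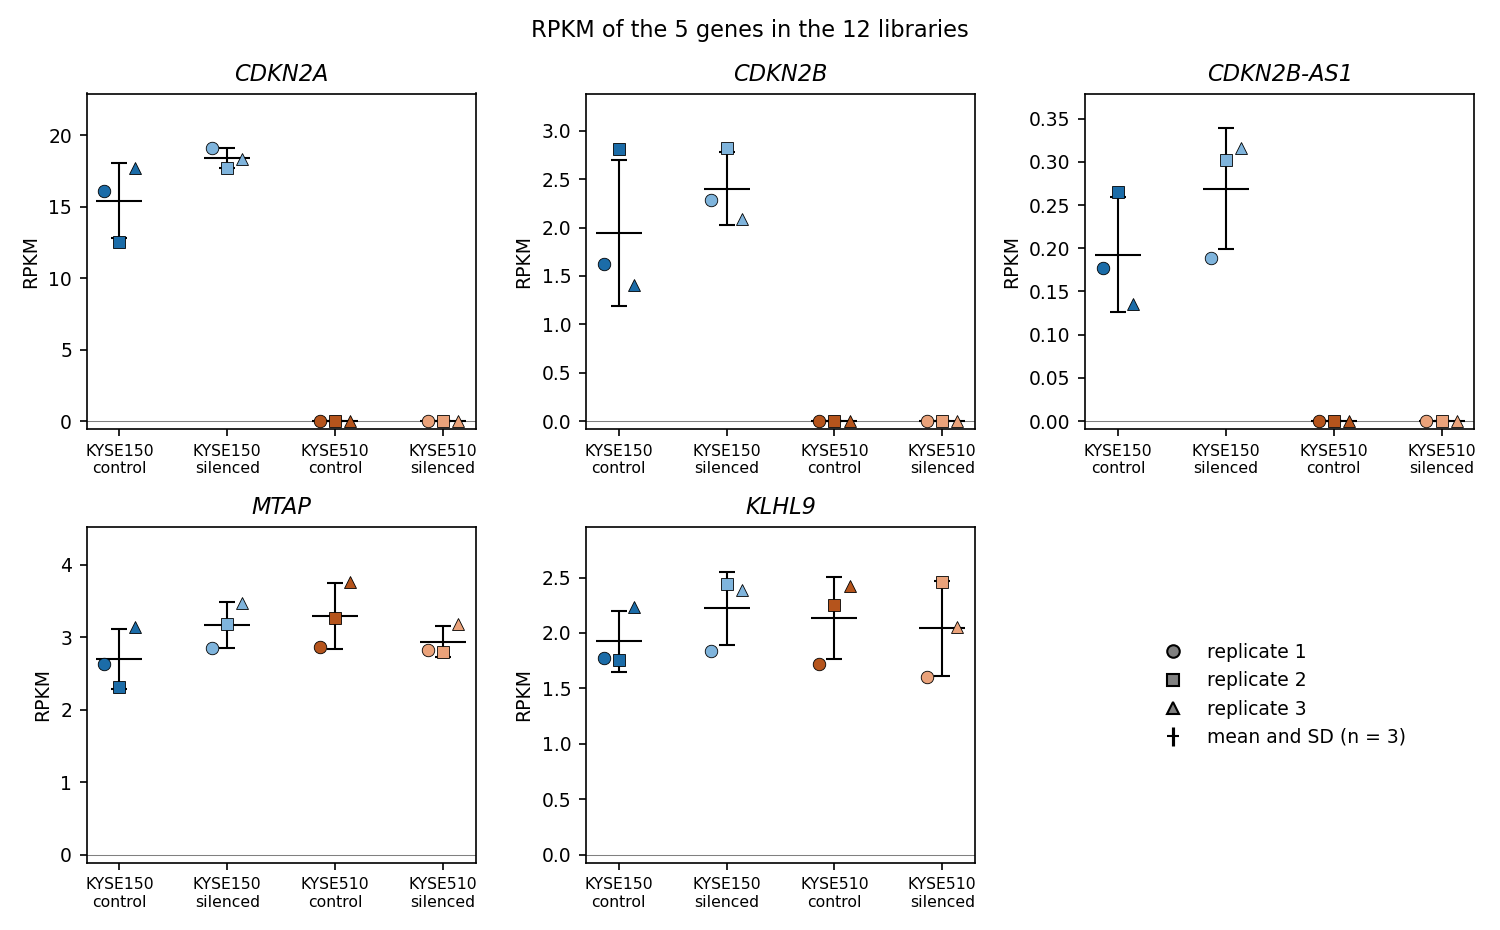
RPKM of the 5 genes (vertical axes, linear, a separate scale for each gene) in the 4 groups of 3 libraries, with symbols for replicates 1 to 3 and black lines for the mean and SD. CDKN2A, CDKN2B and CDKN2B-AS1 lie at or near 0 in KYSE510, and MTAP and KLHL9 overlap between the lines.

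The 3 genes that were low in KYSE510 start near each other, and the bases just before their starts are shown because these promoters are rich in CG pairs, the sites of DNA methylation in human cells. DNA methylation itself was not measured here. Each line gives 150 bases from RefSeq on GRCh38.p14, 5′ to 3′ on the strand of the gene, upstream of the outermost annotated start, with every CG in capitals. The start used for CDKN2A is the outer one, before the first exon of p14ARF, and MTAP is shown as the neighbour that was read in both lines.
CDKN2A promoter, chr9:21995325-21995474, - strand: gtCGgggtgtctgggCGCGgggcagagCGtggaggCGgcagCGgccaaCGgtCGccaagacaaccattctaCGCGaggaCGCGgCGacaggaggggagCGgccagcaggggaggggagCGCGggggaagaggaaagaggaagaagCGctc
CDKN2B promoter, chr9:22009364-22009513, - strand: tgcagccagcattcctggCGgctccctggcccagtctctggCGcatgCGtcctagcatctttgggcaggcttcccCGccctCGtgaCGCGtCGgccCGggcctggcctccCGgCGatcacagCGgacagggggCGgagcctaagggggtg
CDKN2B-AS1 promoter, chr9:21994628-21994777, + strand: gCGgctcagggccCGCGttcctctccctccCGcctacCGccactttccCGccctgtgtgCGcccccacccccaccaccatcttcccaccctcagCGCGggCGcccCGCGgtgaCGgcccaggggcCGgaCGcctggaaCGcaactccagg
MTAP promoter, chr9:21802393-21802542, + strand: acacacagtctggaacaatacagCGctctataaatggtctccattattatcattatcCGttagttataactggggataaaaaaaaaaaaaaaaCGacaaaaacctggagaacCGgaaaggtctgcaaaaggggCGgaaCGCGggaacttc

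These windows held 17 CG pairs for CDKN2A, 13 for CDKN2B, 16 for CDKN2B-AS1 and 7 for MTAP, and the KLHL9 window, not printed, held 13. The median over 35116 RefSeq promoters of the same length was 7. At least as many CG pairs were held by 20.7% of promoters for CDKN2A, 33.7% for CDKN2B and 23.8% for CDKN2B-AS1. The share was 51.4% for MTAP and 33.7% for KLHL9, so counts like these were common. The share of G and C was 70.7% for CDKN2A, 71.3% for CDKN2B, 75.3% for CDKN2B-AS1, 40.7% for MTAP and 73.3% for KLHL9, against a median of 60%. In this share KLHL9, which was read in both lines, was close to the 3 low genes. Whether base composition bears on the reads was not tested. The GC box GGGCGG, searched on both strands, occurred 2 times before CDKN2B, once before CDKN2B-AS1 and once before MTAP, and 36.8% of all promoters held it. The letters TATAAA, also searched on both strands, occurred once, before MTAP, and 6.71% of all promoters held them. None of these windows lies in a GENCODE exon.

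CDKN2A and CDKN2B are close relatives, and reads from bases that are identical in both cannot be assigned to either gene by sequence alone. Of all stretches of 50 bases in the transcripts of each gene, 31 occurred in both, which is 0.681% of those of CDKN2A and 0.765% of those of CDKN2B. The identical sequence is therefore a small part of either gene. Opposite strands also overlap here, since 341 exon bases are shared by CDKN2A and CDKN2B-AS1 (7.88% of the exon bases of CDKN2A and 8.07% of those of CDKN2B-AS1). Whether strand was used in counting is not given in the sources used here, so the reads of those bases are uncertain for both genes.

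MTAP occupies chr9:21802543-21937651 on the plus strand, with 14617 exon bases. Its levels in KYSE150 were 2.63, 2.32 and 3.14 RPKM in controls (2.70 ± 0.416, SD, n = 3) and 2.85, 3.18 and 3.48 RPKM after silencing (3.17 ± 0.313, SD, n = 3). In KYSE510 they were 2.86, 3.27 and 3.77 RPKM in controls (3.30 ± 0.455, SD, n = 3) and 2.82, 2.80 and 3.18 RPKM after silencing (2.94 ± 0.215, SD, n = 3). All 4 groups overlapped, and the order of their means, KYSE510 controls first and KYSE150 controls last, had no neighbours separated beyond their spread. The control lines differed by 0.25 (SE 0.12, limma adjusted p 0.0932), and the exact permutation test within treatments gave p = 0.455. The control difference passed the threshold, higher in KYSE510, when each library was centred on its median (0.28, adjusted p 0.00748), with quantile normalization (0.28, adjusted p 0.00770), without KYSE150 control replicate 3 (0.35, adjusted p 0.0296) and without KYSE510 control replicate 1 (0.34, adjusted p 0.0423). Adjusted p-values over all alternatives ran from 0.00748 to 0.304.

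KLHL9 is a gene of a single exon at chr9:21329671-21335380 on the minus strand, with 5710 bases that no other gene of the table shares. KYSE150 was at 1.77, 1.76 and 2.24 RPKM in controls (1.92 ± 0.272, SD, n = 3) and 1.84, 2.44 and 2.38 RPKM after silencing (2.22 ± 0.332, SD, n = 3). KYSE510 was at 1.72, 2.25 and 2.43 RPKM in controls (2.13 ± 0.369, SD, n = 3) and 1.61, 2.46 and 2.06 RPKM after silencing (2.04 ± 0.429, SD, n = 3). The 4 groups overlapped throughout, with replicate 1 the lowest library in 3 of them. The control lines differed by 0.12 (SE 0.16, limma adjusted p 0.542), and the exact permutation test within treatments gave p = 0.965.

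Among the 5 genes in KYSE150 controls, RPKM, a level per length, was highest for CDKN2A. MTAP, CDKN2B and KLHL9 followed with means of 2.70, 1.95 and 1.92 RPKM, and the libraries of CDKN2B overlapped those of both others. MTAP stood above KLHL9 without overlap, and CDKN2B-AS1 was last at a mean of 0.193 RPKM.

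The loss of reads in KYSE510 was then followed along the chromosome, over 50 genes of the table from 2 Mb before KLHL9 to 2 Mb beyond CDKN2B-AS1. A run of 11 neighbouring genes, from CDKN2A-AS1 to CLIC4P1 over 857 kb (chr9:21966929-22824213), had 12290 reads in the 6 KYSE150 libraries and 9 reads in the 6 KYSE510 libraries. In KYSE510, 9 of these 11 genes had 0 reads, and the exceptions were CDKN2A with 5 reads and the pseudogene UBA52P6 with 4 reads. The run was picked out after its values were seen and carries no test. It holds genes, in order of their starts, with at most 5 reads in KYSE510 and more in KYSE150. Most of its KYSE150 reads belonged to CDKN2A (10735) and CDKN2B (1292), followed by CDKN2B-AS1 (144), LINC01239 (35), UBA52P6 (31) and DMRTA1 (15). RP11-149I2.4 and CDKN2B-AS_3 had 12 each, CLIC4P1 10, CDKN2A-AS1 3 and CDKN2B-AS 1. For the genes with few reads in KYSE150, among them both ends of the run, 0 reads in KYSE510 says little. CDKN2B-AS_3 shares 143 of its 144 exon bases with CDKN2B-AS1, so these 2 are not separate. On the side of MTAP the run was bounded by ERVFRD-3, which ends at position 21931073, had 45 reads in KYSE510 and overlaps an exon of MTAP. AL359922.1 starts before the run and is not counted in it. It ends inside the run, at position 22032986, and had 1602 reads in the 6 KYSE510 libraries. On the other side the next gene of the table, RP11-315I14.2, begins 848 kb beyond the run. It had 3 reads in KYSE510 and 2 in KYSE150. These reads are too few in both lines to mark where reads resume in KYSE510. DNA copy number was not measured, and whether these genes are deleted or not transcribed in KYSE510 was not tested.

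**Figure D2:**
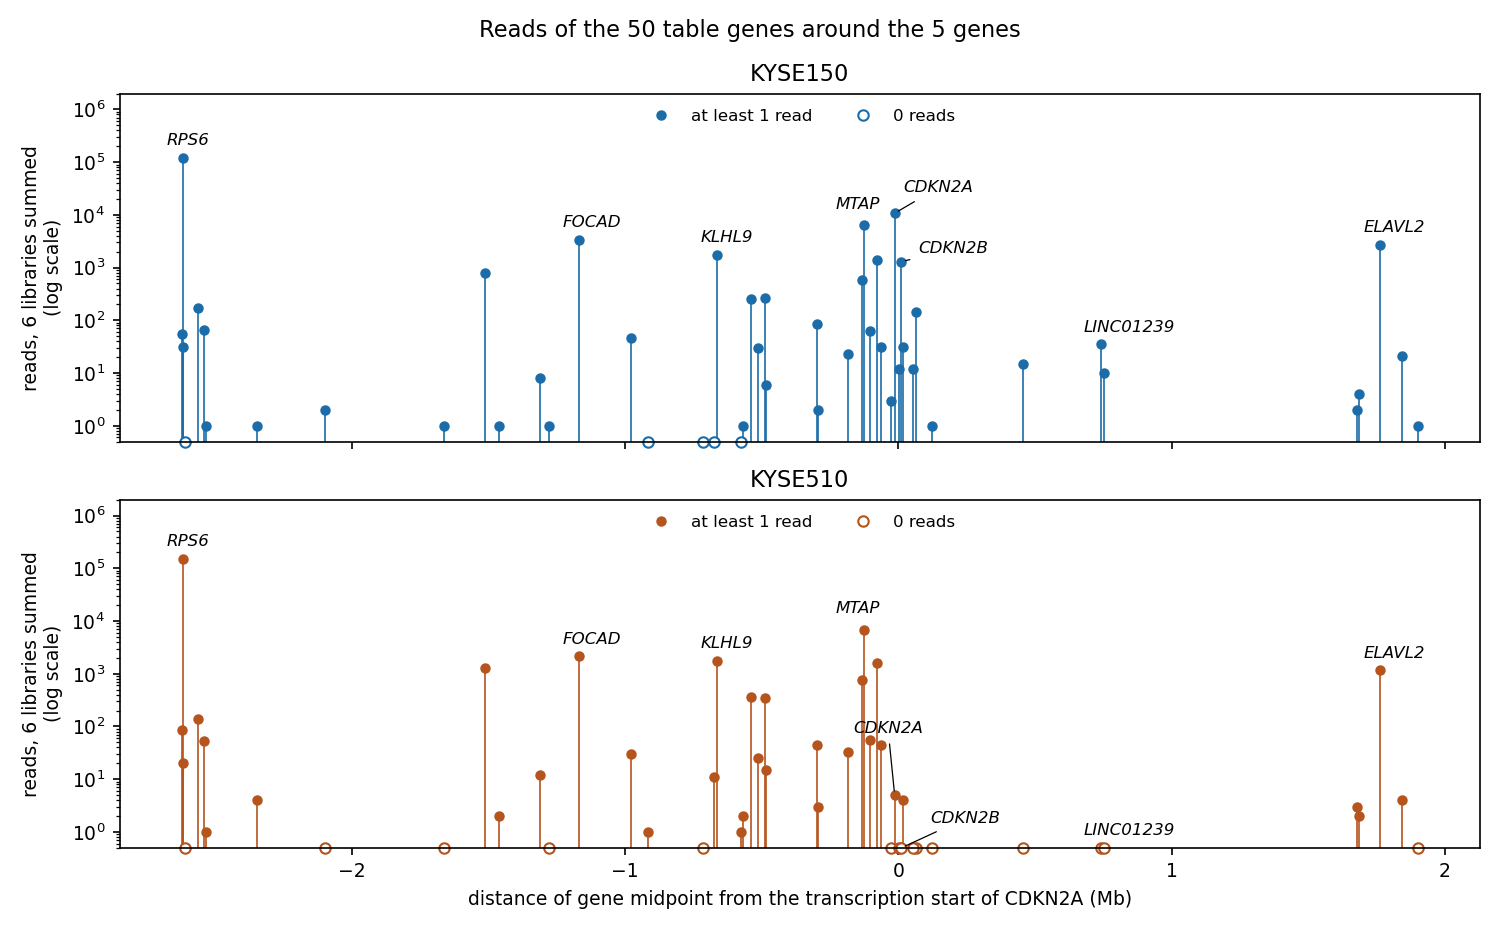
Reads summed over 6 libraries of KYSE150 (top) and of KYSE510 (bottom) for the 50 table genes around the 5 genes, on a log scale, against the distance of the gene midpoint from the transcription start of CDKN2A in Mb, with open circles for 0 reads. The 11 genes of the run, from CDKN2A-AS1 to CLIC4P1, hold 9 reads in the KYSE510 panel and 12290 in the KYSE150 panel. MTAP, KLHL9, FOCAD and RPS6 are read in both.

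Tested genes on both sides of that run were read in both lines, and AL359922.1 among them reaches into the run. Of 45 neighbours, 12 passed the minimum level and 33 did not, and 6 of the 12 differed between the control lines, 3 in each direction. ELAVL2, a neuronal RNA-binding protein gene and the nearest tested gene beyond the run, was at 2.22, 2.18 and 2.90 RPKM in KYSE150 controls and at 0.971, 1.55 and 1.67 RPKM in KYSE510 controls (log2 difference -0.64, SE 0.17, limma adjusted p 0.00679). FOCAD, on the far side of KLHL9, was at 2.20, 2.44 and 2.48 RPKM in KYSE150 controls and 1.32, 1.56 and 1.40 RPKM in KYSE510 controls (-0.58, adjusted p 0.000204). The third lower gene was UBA52P6 (-0.60, adjusted p 0.0468), which lies inside the run. It had 5, 3 and 1 reads in the KYSE150 controls and 0, 1 and 1 in the KYSE510 controls. Only KYSE150 libraries brought it over the minimum level, so its direction followed from how it entered the test. Higher in KYSE510 were RPS6, a ribosomal protein gene (337 against 390 RPKM, 0.21, adjusted p 0.0273), MLLT3, part of a complex that aids transcription elongation (0.664 against 1.10 RPKM, 0.45, adjusted p 0.00714), and AL359922.1 (8.65 against 12.8 RPKM, 0.54, adjusted p 0.0214). ACER2, RP11-513M16.7, IFNWP19, MIR31HG, MIR31 and RP11-70L8.4 had control differences of 0.02 to 0.65 and did not pass the threshold.

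AL359922.1, a read-through of MTAP towards CDKN2B-AS1, shares all of its 935 exon bases with these genes, 460 with MTAP and 475 with CDKN2B-AS1. It nevertheless had reads in all 12 libraries, 148 to 384 per library, also in KYSE510, where CDKN2B-AS1 had 0. Reads of shared bases were therefore assigned to at least this gene, and which of its bases they cover cannot be told from a table of 1 value per gene. In all, 9.58% of the exon bases of MTAP and 22.7% of those of CDKN2B-AS1 are shared with another gene of the table.

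Under HCP5 silencing 0 of the 4 testable genes passed the threshold in either line, by limma. The share of all tested genes that passed was 0.499% in KYSE150 and 0.0393% in KYSE510, and 0.539% when the change was averaged over the lines, and 0 genes passed in the test of a difference between the lines. At an unadjusted p under 0.05 there were 3224, 1132, 2043 and 2181 genes in these 4 comparisons, and of the 4 testable genes CDKN2A alone, in KYSE150. With voom on the reads, 0 passed in each comparison, and at an unadjusted p under 0.05 only MTAP, in the difference between lines. With a term for the paired replicate number the shares became 6.7%, 0.112%, 2.74% and 0%, and still 0 of the 4 testable genes passed.

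In KYSE150 each of the 5 genes was above its same-numbered control in 3 of 3 silenced libraries, without passing any test. How many of all tested genes did the same was not counted, so this does not set the 5 genes apart. CDKN2A differed by 0.26 (SE 0.11, limma adjusted p 0.257), and its silenced libraries all lay above its controls, the lowest silenced value being 17.73 and the highest control 17.71 RPKM. The exact permutation p was 0.1, the smallest that 3 against 3 libraries allow, and 19.2% of all tested genes showed such non-overlapping groups in this line. CDKN2B differed by 0.28 (SE 0.18, adjusted p 0.423), MTAP by 0.20 (SE 0.12, adjusted p 0.388) and KLHL9 by 0.17 (SE 0.16, adjusted p 0.593), with overlapping groups. CDKN2B-AS1, tested alone, differed by 0.15 (exact permutation p = 0.2). The median over all tested genes was 0.08 in the same comparison. After each library was centred on its median, the differences were 0.13 for CDKN2A, 0.15 for CDKN2B, 0.07 for MTAP and 0.04 for KLHL9, so centring lowered each by more than 1.5 times. Leaving out 1 library also moved the uncentred differences by more than 1.5 times. The difference of CDKN2A was 0.12 without KYSE150 control replicate 2. That of CDKN2B was 0.52 without KYSE150 control replicate 2, 0.12 without control replicate 3 and 0.18 without silenced replicate 2. MTAP was at 0.12 without control replicate 2, and KLHL9 at 0.26 without control replicate 3, 0.27 without silenced replicate 1 and 0.11 without silenced replicate 2. None of these values passed the threshold.

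In KYSE510 a silencing effect can be read only for MTAP and KLHL9, since CDKN2B and CDKN2B-AS1 had 0 reads in both groups. CDKN2A had 4 reads after silencing and 1 in controls, a ratio of 4.39 with an exact 95% interval from 0.435 to 216. MTAP was below its control in 3 of 3 pairs and differed by -0.14 (SE 0.12, limma adjusted p 0.942), with -0.22 without KYSE510 control replicate 1 and -0.05 without control replicate 3. KLHL9 differed by -0.05 (SE 0.16, adjusted p 0.988), with 1 of 3 pairs higher, and its sign turned without KYSE510 control replicate 3 (0.03) or silenced replicate 1 (0.07). The change of MTAP in KYSE510 minus that in KYSE150 was -0.34 (SE 0.17, adjusted p 0.419), and that of KLHL9 was -0.22 (SE 0.22, adjusted p 0.641). The opposite signs of MTAP in the 2 lines were thus not separated by the test of their difference. Averaged over lines, MTAP changed by 0.03 (adjusted p 0.928, exact permutation p = 0.76) and KLHL9 by 0.06 (adjusted p 0.902, exact permutation p = 0.645). Of the 12 tested neighbours, 0 passed in either line, with ACER2, ELAVL2 and RPS6 at an unadjusted p under 0.05 in KYSE150 and 0 in KYSE510. ELAVL2 had the largest value, at 2.43 RPKM in KYSE150 controls and 4.61 RPKM after silencing (0.80, SE 0.17, adjusted p 0.0695), and it passed with voom (adjusted p 0.0413).

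**Figure D3:**
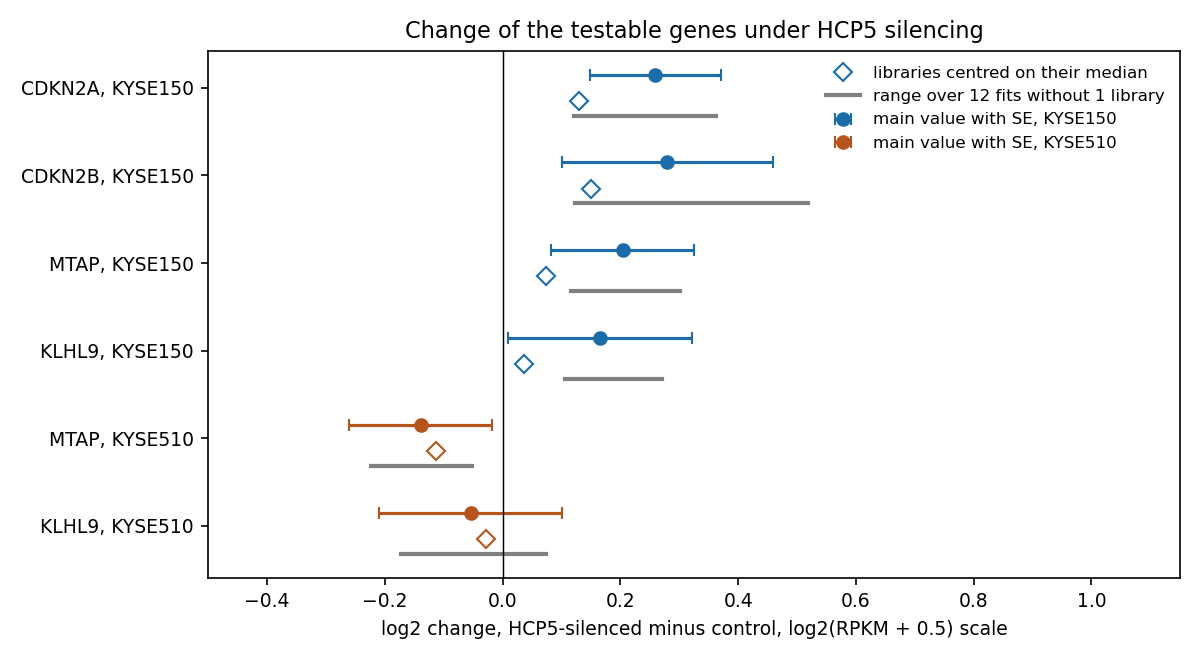
Change under HCP5 silencing (horizontal axis, log2 scale, silenced minus control) of the genes that could be tested in each line, as the fitted value with its SE, the value with libraries centred on their median, and the range over 12 fits that each leave out 1 library. Values in KYSE150 lie above 0 and shrink with centring, and in KYSE510 the range of KLHL9 spans 0.

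The pathways that the 5 genes act in were described from 5 lists of genes, of which 73 genes were tested. Between the control lines 43 of the 73 differed (58.9%, beside 62% of all genes). In the list of the INK4 and RB axis, the kinases, cyclins, RB family and E2F factors on which p16INK4a and p15INK4b act, 17 of 18 genes were tested, 4 were higher and 5 lower in KYSE510, and the median difference was -0.03 beside -0.07 for all genes. CCND2, which encodes cyclin D2, a partner of CDK4 and CDK6, was at 34.8 ± 2.69 RPKM in KYSE150 controls and 0.0398 ± 0.00550 in KYSE510 controls (log2 difference -6.03, SE 0.087, limma adjusted p 1.25e-12). CDKN2C, which encodes p18INK4c of the same inhibitor family, was at 5.89 ± 0.611 and 0.400 ± 0.108 RPKM (-2.83, adjusted p 1.14e-07). CCNE1, which encodes cyclin E1, was higher in KYSE510, at 1.9997 ± 0.0826 and 7.9985 ± 0.984 RPKM (1.76, adjusted p 2.55e-07).

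CDK4 and CDK6, the kinases that the INK4 proteins inhibit, were read in both lines, as were RB1 and CCND1. These genes were named for their role after their values were seen. CDK4 was at 51.0 and 45.4 RPKM in the KYSE150 and KYSE510 controls (limma adjusted p 0.155), and CDK6 at 8.07 and 2.55 RPKM (-1.48, adjusted p 3.12e-06). RB1 was at 5.17 and 5.09 RPKM (adjusted p 0.878), and CCND1, which encodes cyclin D1, at 99.1 and 157 RPKM (0.70, adjusted p 0.0103). KYSE510 thus had lower RNA of CDKN2A, CDKN2B, CDKN2C, CCND2 and CDK6, higher RNA of CCND1 and CCNE1, and RB1 RNA without a detected difference.

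In the list of the ARF and MDM2 axis 13 of 14 genes were tested, 2 higher and 5 lower in KYSE510, with a median of -0.05. GADD45A, a gene of the DNA damage response, was at 29.7 ± 6.68 and 16.0 ± 1.95 RPKM (-0.86, limma adjusted p 0.00213), and BAX, a pro-apoptotic gene, was higher in KYSE510, at 8.49 ± 3.05 and 19.9 ± 2.13 RPKM (1.23, adjusted p 0.000305).

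Around MTAP, all 16 genes of methionine salvage, polyamine synthesis and the PRMT5 complex were tested, with 3 higher and 6 lower in KYSE510 and a median of -0.19. MRI1, the enzyme that follows MTAP in methionine salvage, was at 3.71 ± 0.695 RPKM in KYSE150 and 0.192 ± 0.0177 RPKM in KYSE510 controls (-2.59, limma adjusted p 8.41e-09). ADI1, a later enzyme of the same pathway, was at 44.2 ± 3.39 and 20.9 ± 1.40 RPKM (-1.06, adjusted p 3.34e-06). SRM, the spermidine synthase that yields methylthioadenosine, was at 28.0 ± 5.26 and 52.3 ± 2.68 RPKM (0.90, adjusted p 6.02e-05). PRMT5 itself was at 30.1 and 33.1 RPKM (adjusted p 0.160).

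Of 17 Polycomb genes, the chromatin repressors linked to CDKN2B-AS1, all were tested, with 5 higher and 6 lower in KYSE510 and a median of -0.18. CBX2 was at 2.86 ± 0.487 and 9.42 ± 0.796 RPKM (1.57, limma adjusted p 2.26e-07), BMI1, known as a repressor of the CDKN2A locus, at 8.84 ± 0.620 and 3.70 ± 0.478 RPKM (-1.16, adjusted p 1.68e-06), and PHC1 at 5.44 ± 0.983 and 2.40 ± 0.465 RPKM (-1.03, adjusted p 0.000103). Around KLHL9, 10 of 10 genes of the CUL3 ligase and its mitotic partners were tested, with 4 higher and 3 lower and a median of 0.03. KLHL13, the adaptor that acts with KLHL9 on Aurora B in mitosis, was at 3.68 ± 0.540 and 1.38 ± 0.387 RPKM (-1.17, adjusted p 5.59e-05), and it shares an identical run of 54 bases with KLHL9. CEBPB, a transcription factor, was at 7.63 ± 0.677 and 39.9 ± 4.95 RPKM (2.31, adjusted p 8.98e-08), and INCENP, a partner of Aurora B, at 71.6 ± 2.69 and 44.0 ± 9.65 RPKM (-0.72, adjusted p 0.00225).

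**Figure D4:**
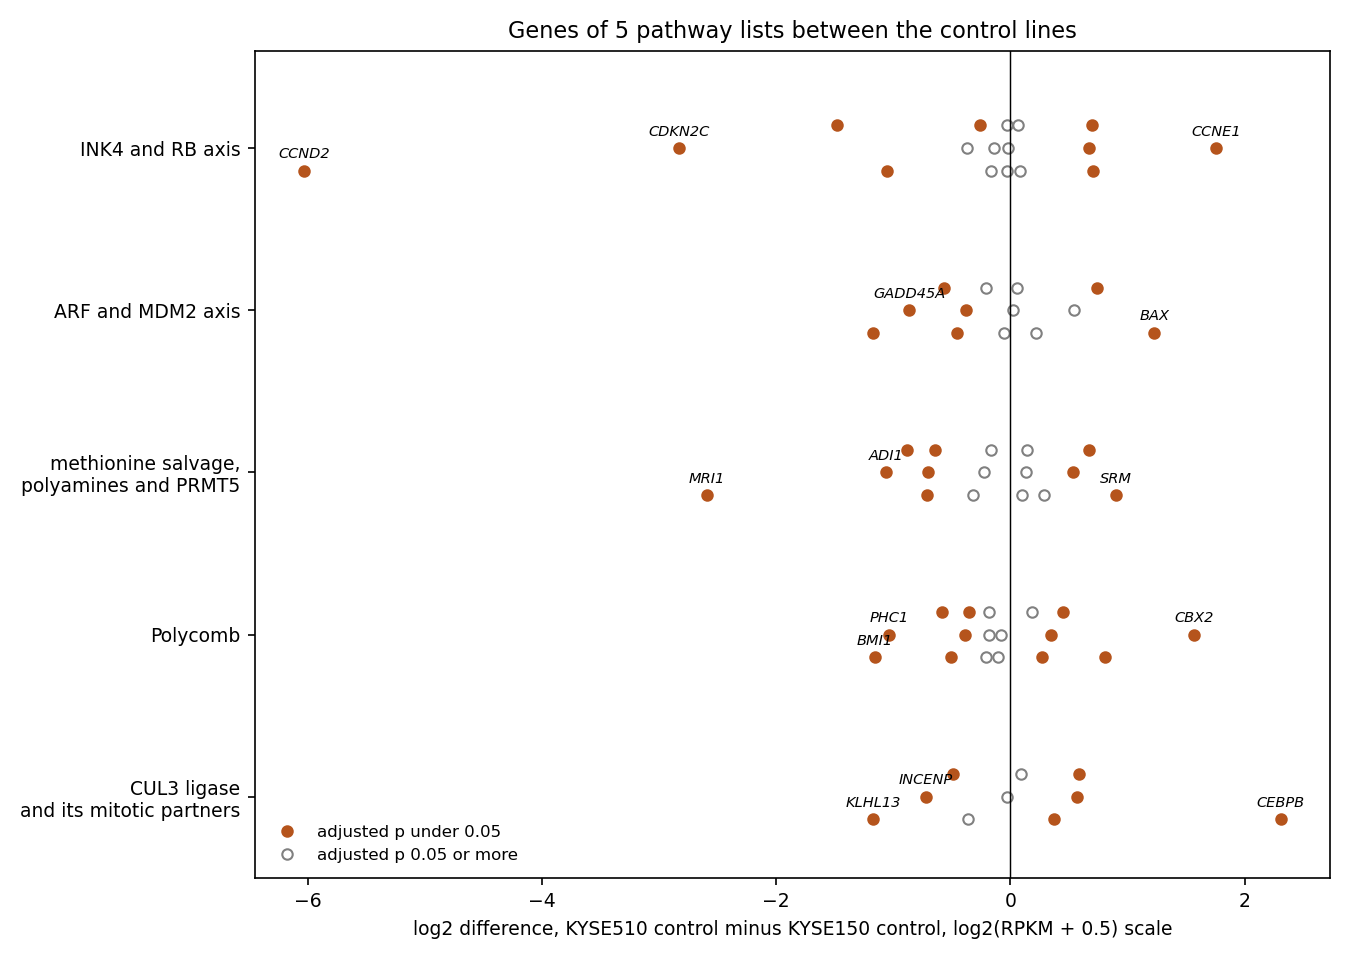
Difference between the control lines (horizontal axis, log2 scale, KYSE510 minus KYSE150) of the 73 tested genes of 5 pathway lists, filled where the adjusted p was under 0.05, with the genes described in the text named. Both directions occur in every list, and CCND2 lies lowest at -6.03.

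Under HCP5 silencing, 1 of the 73 list genes passed in KYSE150 (1.37%, beside 0.499% of all genes) and 0 in KYSE510, with 14 and 4 at an unadjusted p under 0.05. This was CCND2, which rose from 34.8 ± 2.69 to 49.95 ± 4.31 RPKM (SD, n = 3; 0.51, SE 0.087, limma adjusted p 0.0350). The call was lost in 9 of the 12 fits that left out 1 library, where the change ran from 0.45 to 0.59, and its adjusted p over all alternatives ran from 0.000634 to 0.219. It was lost without KYSE150 control replicates 1 or 2, KYSE150 silenced replicates 2 or 3, KYSE510 control replicates 2 or 3, or any of the KYSE510 silenced replicates 1, 2 and 3. With the paired replicate term 6 of the 73 passed in KYSE150 (8.22%, beside 6.7% of all genes), all higher: CCND2, CDK6 (0.45), E2F3 (0.46), RBL1 (0.31), MDM2 (0.40) and RBBP4 (0.29). In this line the median change over the 17 tested genes of the INK4 and RB axis was 0.24, beside 0.08 for all genes. The medians of the other pathway lists ran from 0.08 to 0.14, and that of the 10 squamous epithelial markers was 0.50.

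The genes whose pattern over the 12 libraries was nearest to that of each gene were ranked by the root mean square difference of log2 values, each gene centred on its own mean. For CDKN2A these were PRDX2 (0.13, Pearson r = 0.999), SLC38A5 (0.13) and FKBP10 (0.15), all at 14.4 to 21.96 RPKM on average in the KYSE150 groups and under 0.05 RPKM in the KYSE510 groups. For CDKN2B they were SCN8A (0.12), RP11-1281K21.1 (0.15) and PTPN14 (0.16). In KYSE510 controls their mean levels were 0.0944, 0 and 3.32 RPKM, and in KYSE150 controls 2.56, 2.15 and 16.5 RPKM. PTPN14 was thus clearly read in KYSE510, where CDKN2B had 0 reads. The 0.5 RPKM added before taking logs makes these unlike gaps look similar. These likenesses rest mostly on the gap between the lines. For MTAP they were UHMK1 (0.04, r = 0.963), TXNDC11 (0.05) and C5orf66 (0.06), and for KLHL9 TCAIM (0.06, r = 0.950), AGBL5 (0.07) and URAHP (0.08). The 12 libraries are 6 of each line, so they are not independent points, and the correlations are given as descriptions only.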

How the data were processed

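Gene levels were used as the RPKM deposited by the authors for 38516 genes, scaled, as the values show, to exon length and to the assigned reads of each library. Per the submitters' processing notes, HISAT2, DESeq and GRCh38 were used, with no versions or settings given in the sources used here. Every RPKM times its gene length was a whole multiple of 1 step per library (100% within 0.01), which gave the reads behind each value. Groups came from the labels. Log2(RPKM + 0.5) was fitted with limma 3.58.1 in R 4.3.3 (4 group means, all 12 libraries, eBayes with trend) for the 17823 genes with at least 0.5 RPKM in at least 3 libraries. Two-sided p-values were adjusted over all of these (Benjamini-Hochberg), with a threshold of 0.05. Single genes also had exact two-sided permutation tests of library means, 24 in all. The fit was tested on simulated data. Intervals on reads are exact 95% Poisson or binomial intervals and cover counting error only. Counts of replicates in a group differed beyond sampling noise (chi-square per gene 11.3 to 40.4), so none was counted as a copy.

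Replicate numbers from the titles pair the libraries of a line. Deviations from the group mean correlated at 0.147 to 0.415 in all 6 same-numbered pairs of control and silenced libraries, against -0.385 to 0.184 in other-numbered pairs. The replicate block is therefore printed where it changed a call or a count.

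The 5 genes, the pathway and marker lists and the tests were chosen with earlier results of these data known. Named are the 5 genes, tested neighbours within 2 Mb, up to 3 genes per list with the largest control difference past the threshold and a mean of at least 1 RPKM, list genes past the threshold under silencing, and the 3 most similar patterns. Exon positions come from the table and GENCODE 29, promoter sequences from RefSeq. Some items that this rule would name are not reported here.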

Additional observations from a re-analysis of the deposited data

How the results depend on the processing

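Over the 16 log2 changes of single genes (HCP5 included), 326 of 340 alternative values kept their direction and their side of the threshold. The 8 that reversed were all near 0. MTAP averaged over lines was -0.02 with libraries centred (-0.01956) and with quantile normalization (-0.01802), and ran from -0.01128 to 0.08131 without 1 library. Without 1 library KLHL9 ran from -0.1729 to 0.07416 in KYSE510 and from -0.003608 to 0.1199 averaged over lines. The 6 that newly passed were the 4 values of MTAP between control lines given above and HCP5 with voom and the block (-0.81 and -0.78, adjusted p 0.0221 and 0.0318). The cause was not tested.

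The number of the 5 genes called was 0 for silencing under every alternative run, and 2 to 3 between control lines. The number of pathway genes called for silencing in KYSE150 was 1. It was 0 at a pseudocount of 0.1 and with only the libraries compared, 6 with the replicate block, 16 with voom and the block, and 0 to 6 without 1 library (6 without KYSE150 control replicate 3). In KYSE510 it was 0, and 2 with voom and the block. For silencing, the replicate block changed no call of the 5 genes. It changed the call of HCP5 only with voom, as given above. Calls of the neighbours with the block were not examined. Quantile normalization and voom were chosen after seeing the data. The planned count models on recovered reads were not run, since the deposited unit is RPKM. Genes under about 3 reads a group, such as CDKN2B in KYSE510, cannot be ranked at this depth.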

Other observations

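CDKN2B was 1 of 23 genes that had at least 1 RPKM in all 6 KYSE150 libraries and 0 reads in all 6 KYSE510 libraries, out of 12543 genes at that level in KYSE150. The reverse pattern held for 56 of 12486 genes. The rule was set after the values of CDKN2B were seen, and these counts carry no test. Among the 23 were CCND2-AS1, antisense to CCND2, at 5.53 to 10.7 RPKM in KYSE150, the imprinted neighbours SNRPN (1.64 to 3.61) and SNURF (3.85 to 8.30), CTPS2, a CTP synthase (1.11 to 1.60), and PLCB4, a phospholipase (1.90 to 4.65). Among the 56 were the transcriptional regulators ID4 (7.82 to 10.8 RPKM in KYSE510), PPARG (1.40 to 3.28) and TWIST2 (1.77 to 3.33), and GLIPR2, on the same chromosome arm as CDKN2B (1.05 to 2.95).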
